A study of Mus musculus with 8 samples.

Results

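Ammonia set free by amino acid breakdown is made into urea in the liver, and this report is about the 9 genes that carry out that step and feed it. The 9 genes were taken by name, as a pathway list, from the 25229 gene symbols in the files, and all 9 were present and passed the filter on low counts. The files hold bulk RNA-seq of hepatocyte-enriched liver cells from 8 C57BL/6 mice. Every mouse was Ifih1-/-, so that MDA5, a sensor of double-stranded RNA, was missing in all groups, and every mouse carried Alb-Cre, in which the albumin promoter drives Cre recombinase in hepatocytes. The 3 flox/flox mice had floxed alleles of Adar1, the gene of an RNA-editing enzyme that the files name Adar, on both chromosomes; the 2 wt/flox mice had a floxed allele on 1 chromosome; and the 3 wt/wt mice had wild-type alleles. Mice were 7, 9 or 11 weeks old, and replicates 1, 2 and 3 of each genotype were 11, 9 and 7 weeks old in that order. Although the design text speaks of 2 flox/flox mice, the labels give that genotype to 3 samples, all of which entered the tests. Every value below thus comes from mice without Ifih1, and liver cells without Cre activity keep their floxed alleles uncut.

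The urea cycle is split between mitochondrion and cytosol of the hepatocyte and is most active in the periportal zone of the liver lobule. Nags makes N-acetylglutamate, the activator that Cps1 needs, and Cps1 joins ammonia and bicarbonate to carbamoyl phosphate. Otc then forms citrulline inside the mitochondrion, Ass1 and Asl turn citrulline and aspartate into arginine and fumarate in the cytosol, and Arg1 splits arginine into urea and ornithine. Slc25a15 exchanges ornithine for citrulline across the inner mitochondrial membrane, Slc25a13 (citrin) exports the aspartate used by Ass1, and Gls2, the liver-type glutaminase, releases ammonia from glutamine.

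The Ass1 values are uncertain because a near-identical copy of its coding sequence lies elsewhere in the genome, and the sequences are shown for that reason. On GRCm38, GENCODE M21 lists Ass1 on chromosome 2 (31470207 to 31520672, plus strand) and a processed pseudogene of it, Gm5424, on chromosome 10 (62071123 to 62072362). The main Ass1 transcript has 1696 bases, of which 1239 are coding, and Gm5424 repeats 1240 of its bases, from position 203 to 1442, with 6 differences and 0 gaps (99.5% identity). The longest stretch without a difference is 398 bases. Of the windows of 50, 100 and 150 bases along the transcript, 55.3%, 39.0% and 29.4% occur letter for letter in Gm5424. The 120 bases below, coding bases 310 to 429 of Ass1, hold 2 of the 6 differences, shown in capitals. They are the first coding stretch of this length with the most differences, so other stretches are as alike or more.
Ass1: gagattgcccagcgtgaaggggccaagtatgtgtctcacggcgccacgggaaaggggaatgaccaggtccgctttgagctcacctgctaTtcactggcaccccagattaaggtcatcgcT
Gm5424: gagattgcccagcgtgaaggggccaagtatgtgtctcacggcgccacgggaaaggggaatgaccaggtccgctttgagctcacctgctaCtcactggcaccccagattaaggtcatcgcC

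Counted from 1 at the 5′ end of this stretch, the substitutions from Ass1 to the copy are T90C and T120C. Gm5424 has 0 sense and 0 antisense reads in all 8 libraries, and a count of 0 allows up to 3 reads per library, for counting error only. The deposited tables keep alignments that were not unique in a row of their own, outside the genes. The share of such alignments was 3.92% to 4.32% in flox/flox, 4.89% to 4.98% in wt/flox and 8.97% to 10.9% in wt/wt libraries. Its part in the Ass1 differences below was not tested. Of the other members, 7 share no window of 50 bases with another annotated gene. Nags shares 443 exon bases (15.6% of its exons) with Gm11586, an antisense gene at the same place that is not among the files' symbols.

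**Figure D1:**
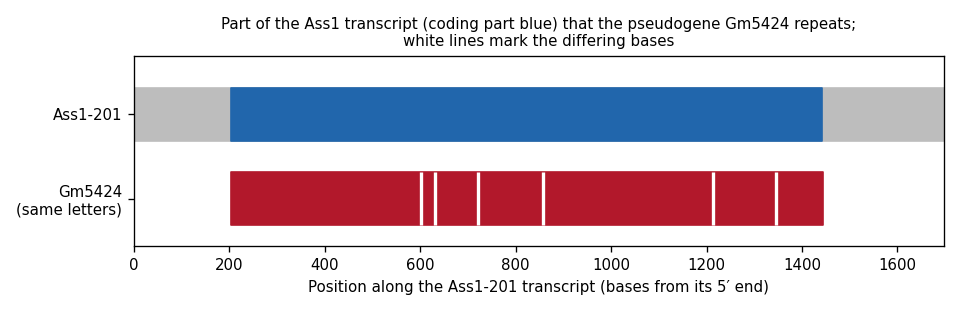
Map of the main Ass1 transcript, with position from its 5′ end in bases on the x axis. The upper bar shows the transcript with its 1239 coding bases in blue, and the lower bar shows the 1240 bases repeated by the pseudogene Gm5424, with white lines at the 6 differing bases; the copy spans the coding part and leaves 456 bases outside it.

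Sense gene reads numbered 98337152 to 132303735 in flox/flox, 75875711 and 96405090 in wt/flox, and 82967317 to 103970706 in wt/wt libraries. In the names of the tables, the flox/flox and wt/flox libraries bear a second-batch mark that the wt/wt libraries lack, so genotype and batch cannot be told apart in any comparison with wt/wt. The tested values below come from a fit of all 8 libraries with genotype and sex as terms. Xist and Y-linked transcripts contradict the labelled sex in 2 libraries: flox/flox replicate 1 is labelled female and had 31 Xist and 21255 Y-linked reads, and flox/flox replicate 2 is labelled male and had 246646 Xist and 0 Y-linked reads. Whether these tables were exchanged was not tested; if so, their ages and replicate numbers would be exchanged as well. The sex term follows the transcripts, and the results with the labelled sex and without these libraries are given where they differ. By transcripts, flox/flox replicates 2 and 3 and wt/wt replicate 3 were female and all others male, so sex was unevenly spread over the genotypes. Only flox/flox replicate 1 shares the sex of the wt/flox libraries, so that comparison leans on the sex term. Adar, counted over the whole gene, had 49.4, 35.9 and 42.1 CPM in flox/flox, 22.0 and 31.8 CPM in wt/flox, and 28.1, 30.0 and 53.6 CPM in wt/wt libraries. The flox/flox libraries lay above both wt/flox libraries (log2 fold change 0.50, SE 0.33, edgeR adjusted p = 0.993) and overlapped with wt/wt (0.15, SE 0.27, adjusted p = 0.693), and the labels do not state which exons are floxed. Ifih1 had 0 to 4 reads per library. Levels are in CPM, reads scaled to a common library size with TMM factors.

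Per kilobase of main transcript, Cps1 was the most abundant member in each genotype. Its level was 2387 ± 132 CPM per kb in flox/flox (SD, n = 3), 2388 CPM per kb in wt/flox and 1291 ± 255 CPM per kb in wt/wt (n = 3). Arg1 followed with 481 ± 42.1 CPM per kb in flox/flox and 710.2 ± 70.2 CPM per kb in wt/wt. Asl, Gls2, Slc25a15 and Otc lay between 115 and 182 CPM per kb in flox/flox and between 129 and 198 CPM per kb in wt/wt. Within that middle group, Asl and Gls2, and Gls2 and Slc25a15, overlapped between flox/flox libraries, as did Asl and Otc, and Otc and Gls2, between wt/wt libraries. Slc25a13 (61.0 ± 6.25 and 62.3 ± 4.09 CPM per kb in flox/flox and wt/wt), Ass1 (32.4 ± 6.58 and 82.9 ± 14.4) and Nags were lowest, and the libraries of Ass1 and Nags overlapped in flox/flox but not in wt/wt. Ass1 reads that also match Gm5424 may have been set aside as not unique, so the Ass1 level may be too low, which was not tested. Dividing by the length of all annotated exons instead kept Cps1 and Arg1 on top and Nags at the bottom. Reads of Cps1 alone made up 1.19%, 1.09% and 1.40% of all gene reads in the flox/flox libraries, 1.37% and 1.03% in wt/flox, and 0.835%, 0.663% and 0.996% in wt/wt.

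**Figure D2:**
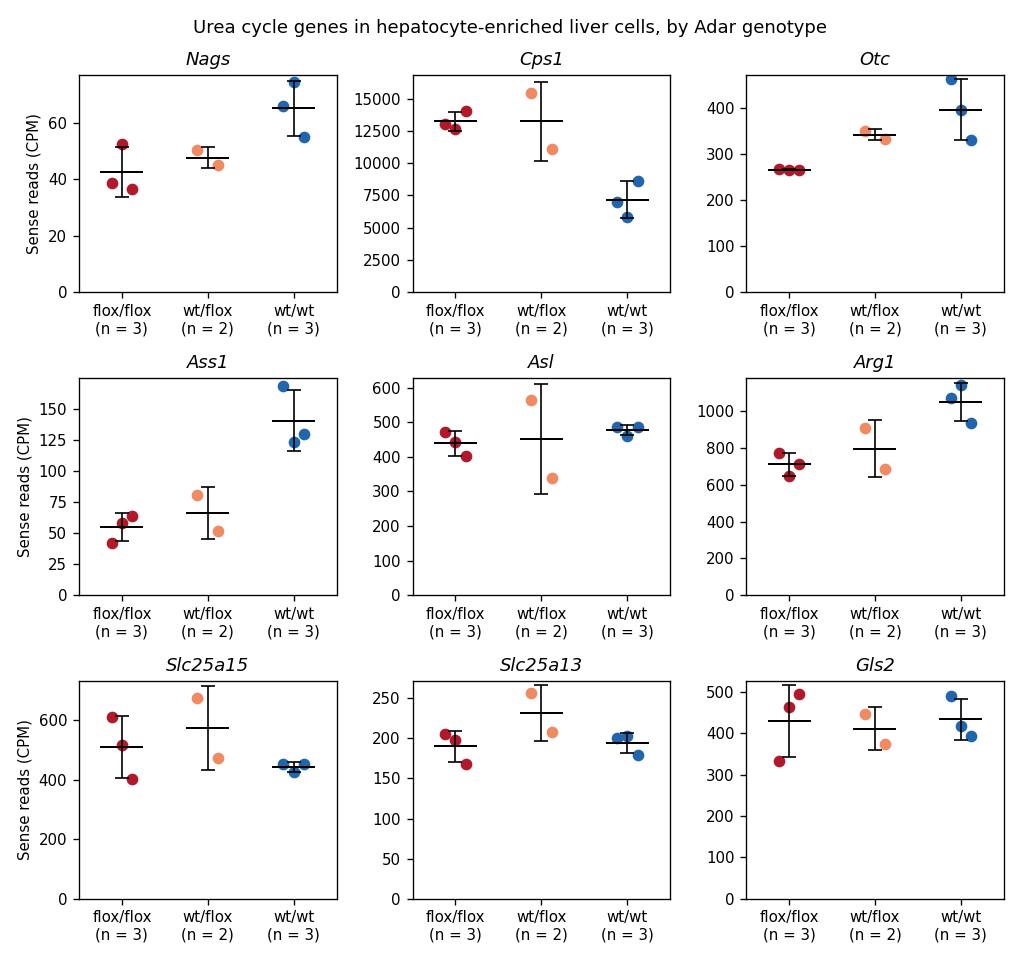
Sense reads in CPM (y axis, from 0) of the 9 urea cycle genes in each library, by genotype (x axis). Points are libraries, horizontal lines are group means and error bars are SD; Cps1 is higher and Ass1 and Arg1 are lower in both groups with a floxed allele than in wt/wt.

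In flox/flox against wt/wt, the groups differ in their Adar1 alleles and in the batch mark, and the values below describe both together. Of the 9 members, 1 rose (Cps1) and 3 fell (Ass1, Otc and Arg1) at an adjusted p below 0.05, and 5 did not pass. Over all 14728 genes tested, 29.1% were called, 14.5% higher and 14.6% lower. The median log2 fold change was -0.10 for the 9 members and 0.01 for all genes tested. The called members thus went in both directions, as did the calls over all genes. The 3 flox/flox libraries lay above all wt/wt libraries for 1 member and below them for 4, where 23% and 22% of all genes did so (45% in either direction). With library size alone as the scaling, the median of all genes was -0.32, and 691 genes were called higher and 4159 lower in place of 2139 and 2143.

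Cps1 (chromosome 1, 67123026 to 67231259, plus strand) had 13007, 12687 and 14085 CPM in flox/flox, 15433 and 11097 CPM in wt/flox, and 7028, 5832 and 8649 CPM in wt/wt libraries. Every library with a floxed allele lay above every wt/wt library, and the flox/flox and wt/flox libraries overlapped. The mean was 13259.5 ± 732 CPM in flox/flox against 7169.6 ± 1414 CPM in wt/wt (SD, n = 3 each), a fitted 1.77-fold rise (log2 fold change 0.82, SE 0.21, edgeR adjusted p = 0.0254). The call was lost when flox/flox replicate 1 (0.189) or 3 (0.0501), or wt/wt replicate 1 (0.0578), 2 (0.0849) or 3 (0.0516) was left out, with these edgeR adjusted p, and when the libraries of contradicted sex were left out (0.213). With library size alone as the scaling the log2 fold change was 0.49 (edgeR adjusted p = 0.106), and with the replicate number, which stands for age in the labels, as a block it was 0.77 (0.0584).

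Nags, which makes the activator of Cps1, did not pass the test. It had 38.7, 52.6 and 36.5 CPM in flox/flox, 50.4 and 45.1 CPM in wt/flox, and 66.0, 74.7 and 55.2 CPM in wt/wt libraries, so that the flox/flox and wt/wt libraries did not overlap. The log2 fold change was -0.58 (SE 0.20, edgeR adjusted p = 0.0608). It was called under 9 of the 23 alternative settings, among them the labelled sex (edgeR adjusted p = 0.0246) and no sex term (0.0320), over a range of 0.00517 to 0.357.

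Otc (chromosome X, 10252305 to 10321024, plus strand) had 268, 265 and 265 CPM in flox/flox, 350.2 and 333 CPM in wt/flox, and 462, 396 and 331 CPM in wt/wt libraries. All flox/flox libraries lay below all others, and wt/flox lay within the range of wt/wt. The mean was 266 ± 1.64 CPM in flox/flox and 396 ± 65.4 CPM in wt/wt (SD, n = 3 each), a 1.42-fold fall (log2 fold change -0.50, SE 0.14, edgeR adjusted p = 0.0312). The Otc call was lost without flox/flox replicate 1 (0.211), wt/flox replicate 1 (0.0544) or 2 (0.0567), or wt/wt replicate 1 (0.0694) or 2 (0.0674), without the libraries of contradicted sex (0.306), and with the replicate (age) block (0.0896), with these edgeR adjusted p.

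Ass1, the cytosolic enzyme that joins citrulline and aspartate, had the largest change among the members. It had 42.5, 58.4 and 64.0 CPM in flox/flox, 81.0 and 51.8 CPM in wt/flox, and 168, 123 and 129.9 CPM in wt/wt libraries. The wt/wt libraries lay above all others. The mean was 55.0 ± 11.2 CPM in flox/flox and 141 ± 24.4 CPM in wt/wt (SD, n = 3 each), a 2.70-fold fall (log2 fold change -1.43, SE 0.25, edgeR adjusted p = 0.00783). The value is uncertain because of the copy shown above. The call was lost without flox/flox replicate 1 (edgeR adjusted p = 0.0515) and without the libraries of contradicted sex (0.117).

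Arg1 (chromosome 10, 24915221 to 24927484, minus strand), which releases urea, had 772, 648 and 711 CPM in flox/flox, 905 and 686 CPM in wt/flox, and 1069.7, 1141 and 936 CPM in wt/wt libraries. The wt/wt libraries again lay above all others. The mean was 711 ± 62.1 CPM in flox/flox and 1049 ± 104 CPM in wt/wt (SD, n = 3 each), a 1.40-fold fall (log2 fold change -0.49, SE 0.15, edgeR adjusted p = 0.0456). The Arg1 call was lost without any flox/flox replicate (edgeR adjusted p 0.172, 0.0835 and 0.0608 without replicates 1, 2 and 3), without any wt/wt replicate (0.0838, 0.114 and 0.149), with the labelled sex (0.0684) and when both libraries of contradicted sex were dropped (0.313). It was also lost with the replicate (age) block (edgeR adjusted p = 0.129). With a trend of fold change with exon length removed, the log2 fold change was -0.27 (edgeR adjusted p = 0.219).

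Asl and the carriers did not pass the test in this comparison. Asl, which releases arginine and fumarate, had 473, 442 and 403 CPM in flox/flox, 565 and 339 CPM in wt/flox, and 486, 460.2 and 485 CPM in wt/wt libraries (log2 fold change -0.10, SE 0.20, edgeR adjusted p = 0.731). The groups overlapped, and the wt/flox libraries spanned the widest range. The ornithine carrier gene Slc25a15 had 611, 516 and 403 CPM in flox/flox, 675 and 474 CPM in wt/flox, and 453, 425 and 451 CPM in wt/wt libraries (log2 fold change 0.25, SE 0.19, adjusted p = 0.350). The aspartate carrier gene Slc25a13 had 205, 198 and 168 CPM in flox/flox, 257 and 208 CPM in wt/flox, and 201, 203 and 179.8 CPM in wt/wt libraries (log2 fold change 0.03, SE 0.13, adjusted p = 0.899). Flox/flox and wt/wt libraries overlapped for both carriers, and with library size alone their log2 fold changes turned to -0.09 for Slc25a15 and -0.31 for Slc25a13, both not called. The glutaminase gene Gls2 had 332, 464 and 495 CPM in flox/flox, 447 and 374 CPM in wt/flox, and 489, 418 and 393 CPM in wt/wt libraries (log2 fold change -0.08, SE 0.20, adjusted p = 0.779), again with overlap.

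**Figure D3:**
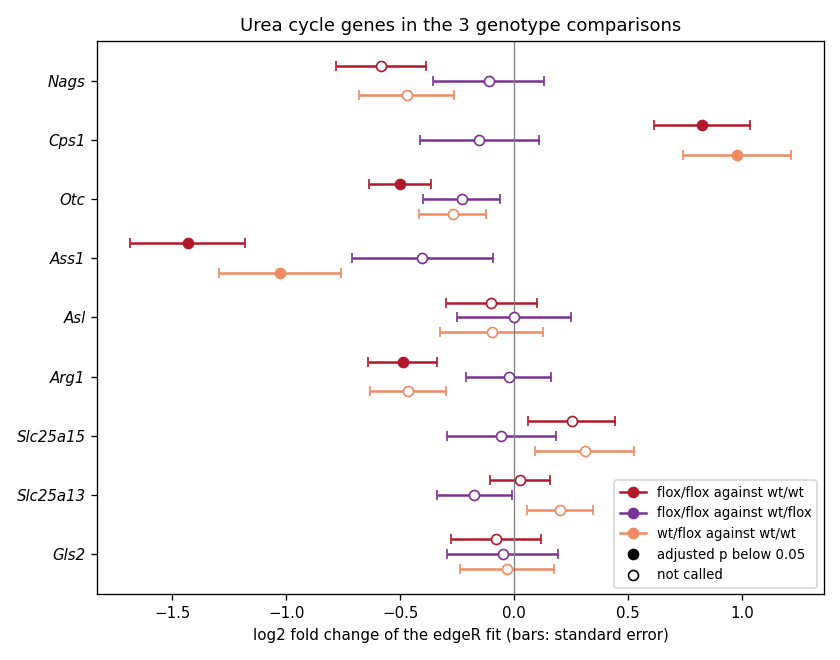
Fitted log2 fold changes (x axis, with standard errors as bars) of the 9 genes in the 3 genotype comparisons; filled points passed an adjusted p of 0.05. Cps1 and Ass1 are filled against wt/wt in both the flox/flox and the wt/flox comparison, and no point is filled for flox/flox against wt/flox.

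The flox/flox and wt/flox libraries carry the same batch mark, and between them 0 of the 9 members passed the test, with 0% of all 14728 genes called. With 3 and 2 libraries, this test had little power over all genes: in simulated counts it found 9% of 2-fold and 64% of 4-fold changes. The changed genes were drawn from all genes tested, without a sex effect, so these shares are not those of the members. The lack of calls thus does not show that the groups were alike. At an unadjusted p below 0.05 there were 525 genes, none of them a member. DESeq2 called 16 genes and limma-voom 0, again with 0 members. The largest difference was that of Ass1 (log2 fold change -0.40, SE 0.31, edgeR adjusted p = 0.993), followed by Otc (-0.23, SE 0.17, adjusted p = 0.993). That of Cps1 was -0.15 (SE 0.26, adjusted p = 0.993). The flox/flox libraries lay below both wt/flox libraries for 2 members (Otc and Slc25a13) and above them for 0, where 13.1% and 14.2% of all genes did so (27.3% in either direction). The direction for Ass1 turned to 0.04 without flox/flox replicate 1, and that for Cps1 to 0.10 without wt/flox replicate 1.

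In wt/flox against wt/wt, 2 members passed the test, Cps1 (log2 fold change 0.98, SE 0.24, edgeR adjusted p = 0.0370) and Ass1 (-1.03, SE 0.27, adjusted p = 0.0448), where 14.5% of all genes were called, 7.58% higher and 6.9% lower. With library size alone, 356 genes were higher and 3551 lower, in place of 1116 and 1016, and the median of all genes was -0.40. Of the members, 0 were then called higher and 4 lower (Otc, Ass1, Arg1 and Nags), and Cps1 was not called (log2 fold change 0.62, edgeR adjusted p = 0.0903). The wt/flox libraries lay above all wt/wt libraries for 3 members and below them for 3, where 25.8% and 29.3% of all genes did so (55.1% in either direction). The wt/flox mean was 13265 ± 3066 CPM for Cps1 and 66.4 ± 20.7 CPM for Ass1 (SD, n = 2). Arg1 (-0.47, SE 0.17, adjusted p = 0.0997) and Otc (-0.27, SE 0.15, adjusted p = 0.243) did not pass. This comparison shares its wt/wt libraries with that of flox/flox, where the log2 fold changes were 0.82 for Cps1 and -1.43 for Ass1. Without wt/flox replicate 1 or 2, wt/wt replicate 1 or 2, or flox/flox replicate 3, neither was called, without flox/flox replicate 2 Ass1 was not called, and the labelled sex gave a call for Nags alone (edgeR adjusted p = 0.0419).

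The balance of the members can also be read without any size factor, as a ratio within a library. This ratio is not scaled for length, and its Ass1 reads carry the uncertainty of the copy Gm5424 described above. The share of alignments that were not unique differed between wt/wt and the other libraries. The part of that share in the ratio was not tested. Each Ass1 read stood against 306, 217 and 220.1 Cps1 reads in flox/flox, 190.5 and 214 in wt/flox, and 41.7, 47.3 and 66.6 in wt/wt libraries. All libraries with a floxed allele lay above all wt/wt libraries. The log2 ratio averaged 7.93 ± 0.28 in flox/flox and 5.67 ± 0.35 in wt/wt (SD, n = 3 each), a difference of 2.27. The two-sided exact permutation p was 0.1, the smallest that 3 against 3 libraries allow, and this pair was chosen with its direction known. Against wt/flox (7.66 ± 0.12, n = 2) the difference was 0.28 (exact permutation p = 0.4).

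Across the 8 libraries, log2 CPM of Otc, Ass1, Arg1 and Nags ran together, with a Pearson r of 0.78 to 0.85 for each pair, and each ran against Cps1, with r of -0.74 to -0.84. Slc25a15 and Slc25a13 had an r of 0.80. These values describe 8 libraries that share the batch split and the size factors. By the same measure, among 8639 genes with a mean of at least 5 CPM, the gene most like Cps1 was Diaph2 (r = 0.98), and that most like Ass1 was Dnajc19 (0.99). Those for the others were Rsph3b for Otc (0.99), Wdr61 for Arg1 (0.99), Sap30l for Nags (0.99), Coq10a for Asl (0.93), Cdc37l1 for Slc25a15 (0.96), Msi2 for Slc25a13 (0.96) and Nfyc for Gls2 (0.95). Each r is the highest of its search over only 8 libraries, and a link between the paired genes was not tested.

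Fold changes against wt/wt also varied with exon length over all genes. The median log2 fold change of flox/flox against wt/wt was 0.16 for 676 genes under 1000 exon bases, -0.42 for 1714 genes with at least 1000 but under 2000 exon bases, -0.18 for 4400 genes from 2000 to under 4000 bases, 0.03 for 3337 genes from 4000 to under 6000 bases and 0.23 for 4280 longer genes. Arg1 (2228 bases), Ass1 (2414), Nags (2838), Gls2 (3474) and Slc25a13 (3798) belong to the third of these classes. Otc (4241), Asl (4831), Cps1 (5555) and Slc25a15 (5629) belong to the fourth. Against wt/flox the class medians ranged only from -0.06 to 0.02. With the trend removed, Cps1 (log2 fold change 0.72, edgeR adjusted p = 0.0484), Otc (-0.49, 0.0414) and Ass1 (-1.24, 0.0156) were still called in flox/flox against wt/wt. In wt/flox against wt/wt, 0 members and 812 genes in all were then called. With the replicate block as well, 0 genes were called in either comparison.

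**Figure D4:**
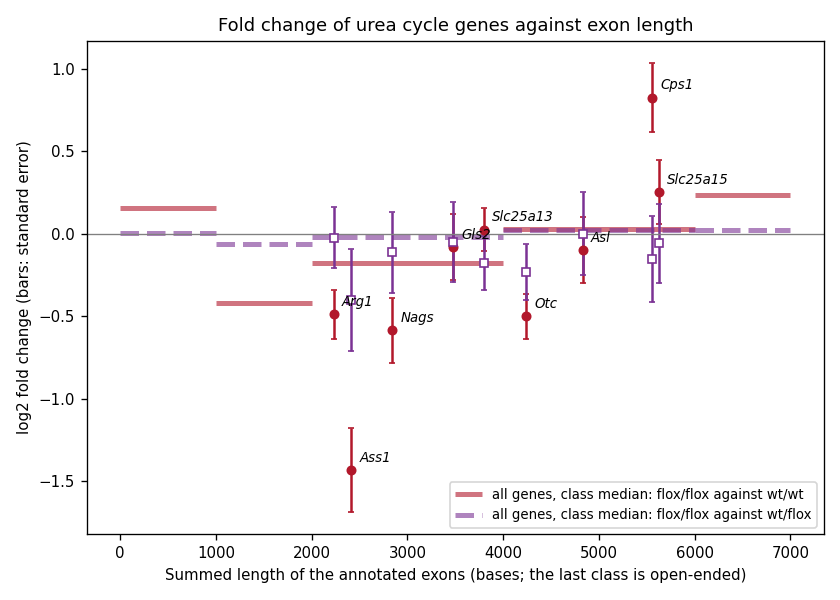
Fitted log2 fold change (y axis, bars are standard errors) of the 9 genes against the summed length of their exons (x axis, bases). Filled circles are flox/flox against wt/wt and open squares are flox/flox against wt/flox; thick lines are medians of all genes by length class, which climb from -0.42 to 0.23 above 1000 bases against wt/wt and stay between -0.06 and 0.02 against wt/flox.

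Genes around the cycle were counted from lists of related steps, to be read against the 14.5% of all genes called higher and the 14.6% called lower (29.1% in all) in this comparison. Of 20 genes listed around the supply and use of ammonia, glutamate and aspartate, 2 rose and 6 fell in flox/flox against wt/wt, with a median log2 fold change of -0.15. The glutamate transporter gene Slc1a2 rose 2.04-fold to 175 ± 39.2 CPM, against 82.1 ± 9.86 CPM in wt/wt, and the amino acid transporter gene Slc38a4 rose 1.91-fold to 1781 ± 157 CPM, against 980.4 ± 165 CPM. Glul, the glutamine synthetase that takes up ammonia in pericentral hepatocytes, fell 2.18-fold to 192 ± 42.7 CPM, against 405 ± 74.7 CPM, and the malate dehydrogenase gene Mdh2 fell 1.55-fold (edgeR adjusted p = 0.0163 for Glul and 0.0146 for Mdh2).

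Of 18 tested genes that use arginine or ornithine (19 listed), 1 rose and 7 fell, with a median of -0.48, where 14.5% of all genes rose and 14.6% fell. Gatm and Gamt, which make creatine from arginine and glycine, fell 2.58-fold and 1.94-fold, and the antizyme gene Oaz1, which restrains polyamine synthesis, fell 1.79-fold (edgeR adjusted p = 0.00493 to 0.0118). Gatm was low, with 1.96 ± 0.590 CPM in flox/flox against 4.24 ± 1.34 CPM in wt/wt. Of 19 regulators, 2 rose and 0 fell, with a median of 0.03, a smaller share than the 29.1% of all genes called. They were the insulin receptor gene Insr (2.19-fold, 475 ± 32.3 against 210.2 ± 12.4 CPM) and the glucagon receptor gene Gcgr (1.54-fold, 229.5 ± 18.9 against 152 ± 17.4 CPM). The other 17 regulators did not pass.

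Of 15 other periportal genes, 4 rose and 2 fell, with a median of 0.19, including Hsd17b13 (1.71-fold higher), the cadherin gene Cdh1 (1.75-fold higher), the gluconeogenic gene Fbp1 (1.64-fold lower) and Sdsl (1.83-fold lower). Of 17 pericentral genes, 4 rose and 3 fell, with a median of 0.23, including Cyp2a5 (3.19-fold higher, in a family of similar genes), Cyp1a2 (1.64-fold higher), Slc1a2 and Glul. Both zones' lists had genes in either direction, and 29.1% of all genes were called (14.5% higher and 14.6% lower). In flox/flox against wt/flox 0 genes of the 5 lists passed. With a single library left out, the calls against wt/wt numbered 1 to 7 for nitrogen supply and use, 2 to 9 for arginine use, 1 to 3 for regulators, 3 to 6 for periportal and 1 to 7 for pericentral genes.

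Markers of cell types differed between the same groups. The counts called are for flox/flox against wt/wt, where 14.5% of all genes were called higher and 14.6% lower. The summed level of 7 of the 8 listed hepatocyte markers was 145359 to 225694 CPM in flox/flox, 139797 to 154156 in wt/flox and 90857 to 106899 in wt/wt, with 1 of 7 genes called higher. Most of that sum was Alb, with 98247 to 171684 CPM in flox/flox, 86648 and 97621 in wt/flox and 63587 to 79947 in wt/wt, whereas Ttr (4748 to 4994 CPM in flox/flox and 4158 to 6284 in wt/wt) and Apoa1 (4208 to 5800 and 4763 to 6038) overlapped. That of 10 endothelial markers was 80.9 to 168 CPM in flox/flox, 91.6 to 105 in wt/flox and 181 to 290.0 in wt/wt (8 of 10 lower in flox/flox). That of 10 Kupffer cell markers was 27.3 to 97.2, 27.7 to 28.4 and 50.3 to 221 CPM (2 of 10 lower), and that of 8 monocyte and macrophage markers, 13.0 to 39.7, 12.6 to 14.6 and 22.8 to 83.5 CPM (1 of 8 lower), in the order flox/flox, wt/flox and wt/wt. Summed neutrophil, T and NK, and B cell markers stayed under 10 CPM in every library, while cholangiocyte markers summed to 13.5 to 36.0, 7.11 to 27.2 and 17.6 to 27.3 CPM and stellate cell markers to 35.0 to 67.4, 25.7 to 34.1 and 23.0 to 48.8 CPM, in the same order of genotypes. Of 3 erythroid markers, the globin genes Hba-a1 and Hbb-bs had 0 reads. Alignments that were not unique lie outside the genes, and whether globin reads were among them was not tested. The third, Alas2, a heme synthesis gene, made up the whole sum. It had 48.5, 5.59 and 8.82 CPM in flox/flox, 98.2 and 80.6 CPM in wt/flox, and 103, 93.9 and 7.23 CPM in wt/wt libraries. The lowest Alas2 values were those of flox/flox replicates 2 and 3 and wt/wt replicate 3, the libraries female by transcripts. The part of other cells in the levels of Arg1 and Ass1 was not tested. In such bulk samples, fewer cells of a type and less RNA per cell cannot be told apart.

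The libraries were strand-specific, and reads on the strand opposite to each member were deposited too. Ass1 had an antisense share of 11.1% to 12.6% of its reads in flox/flox, 9.74% and 10.9% in wt/flox, and 6.16%, 6.56% and 6.89% in wt/wt libraries. The antisense level was 7.36 ± 1.08 CPM in flox/flox and 9.78 ± 1.21 CPM in wt/wt, so the sense reads differed more than the antisense reads. Arg1 went the other way, with an antisense share of 5.51% ± 0.326 in flox/flox and 6.80% ± 0.661 in wt/wt (SD, n = 3 each), and so did Cps1 with 3.85% ± 0.0727 and 4.23% ± 0.116. In all, 4 members lay above every wt/wt library in every flox/flox library and 2 below, where 17.3% and 10% of all genes did so. Over all genes the share was 7.58% to 7.78% in flox/flox, 6.43% and 7.20% in wt/flox and 7.17% to 7.51% in wt/wt libraries. Adding antisense to sense reads left the 4 called members called.

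**Figure D5:**
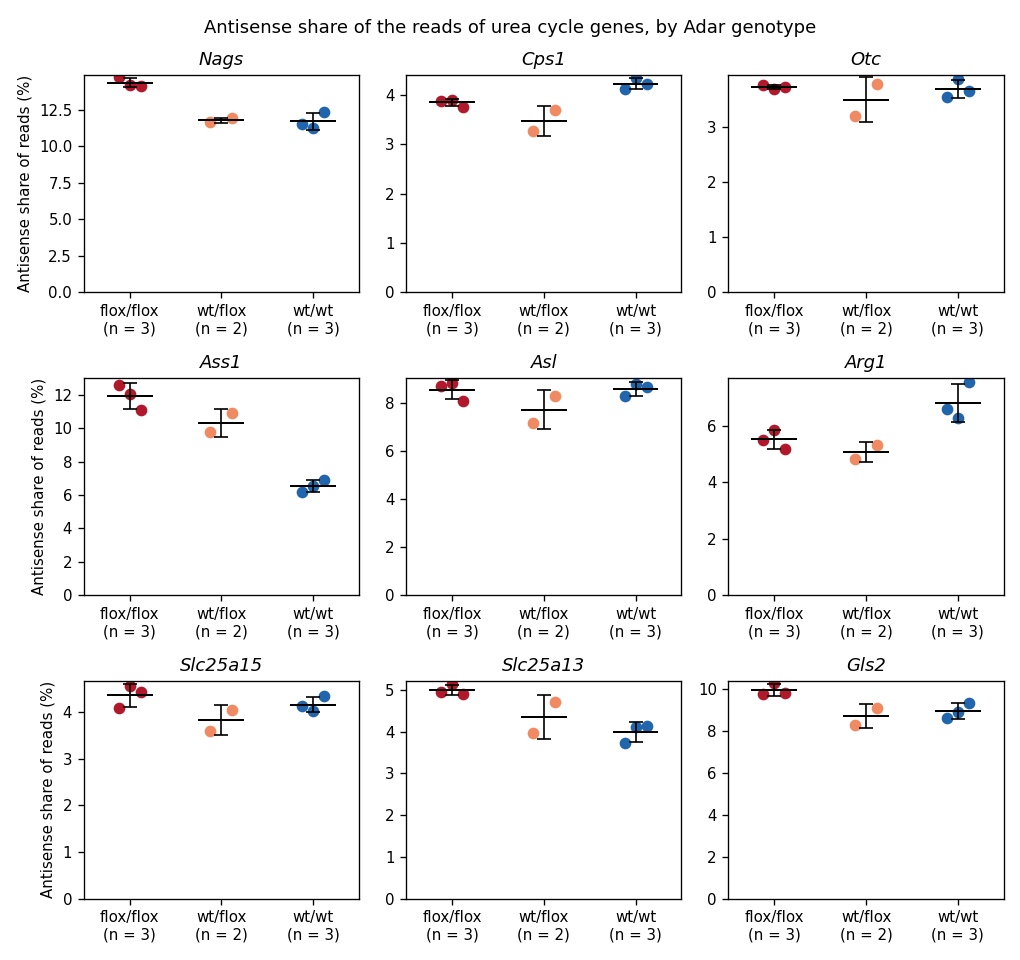
Antisense share of the reads of each urea cycle gene in percent (y axis, from 0), by library and genotype (x axis). Points are libraries, lines are group means and error bars are SD; for Ass1 the flox/flox libraries lie between 11.1% and 12.6% and the wt/wt libraries between 6.16% and 6.89%.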

How the data were processed

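Per the file headers, the authors deposited whole-number counts of reads for each gene symbol, sense and antisense, in 1 table per mouse. Per the labels' protocols, cells came from collagenase-perfused liver by low-speed spin and a Percoll gradient, ribosomal RNA was depleted and libraries were strand-specific. The submitters' processing notes name GRCm38 (mm10) and DESeq2, whereas aligner, counter and annotation were not given in the sources used here. Besides 25229 genes, each table holds 5 tally rows without a gene, kept out of library sizes and tests. Of sense reads, 22.2% to 40.0% lay in no gene (34.5% to 40.0% in flox/flox, 31.7% and 37.3% in wt/flox, 22.2% to 28.1% in wt/wt) and 0.317% to 0.668% were ambiguous. All pairs of libraries differed by more than sampling noise.

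Sense counts were tested with edgeR 4.0.16 in R 4.3.3 (quasi-likelihood F test, TMM factors), after filterByExpr on the groups (14728 genes kept) and Benjamini-Hochberg adjustment over all of them at 0.05, two-sided. All 8 libraries entered 1 fit with genotype and sex, the sex being female where Xist reads outnumbered those of Ddx3y, Eif2s3y, Kdm5d and Uty. Fold changes are those of this fit and adjust for sex. Alternatives were RLE factors, library size alone (chosen after seeing the data), other filters, DESeq2 1.42.0, limma-voom (limma 3.58.1), the labelled sex, dropping sex, a block for the replicate number, removal of an exon-length trend per library (lowess, span 0.3), only the 2 groups compared, antisense reads added, and each library or both libraries of contradicted sex left out. The scripts were tested on simulated counts.

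Exon lengths and coordinates are from GENCODE M21 (GRCm38), which matched 24366 of 25229 symbols (96.6%). The Ass1 and Gm5424 sequences are from its transcripts, and main transcripts are the longest marked principal. The members and lists were chosen with earlier results of these data known. Always named were the 9 members, Adar and Ifih1; from each list up to 4 called genes of smallest adjusted p, and for each member the gene of highest correlation; 1 gene that this rule names is not reported here. Of the marker lists, Tf and Trac were not used here.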

Additional observations from a re-analysis of the deposited data

Results flagged for a closer look

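Reads on the opposite strand were not part of the tested values, and the antisense share of 4 members lay, in every flox/flox library, above all wt/wt libraries, as did that of 17.3% of all genes. That of 2 members, Cps1 and Arg1, lay below, as did that of 10% of all genes. The mean share was 11.9% ± 0.767 in flox/flox, 10.3% ± 0.827 in wt/flox and 6.54% ± 0.364 in wt/wt for Ass1. It was 14.3% ± 0.319, 11.8% ± 0.171 and 11.7% ± 0.562 for Nags, whose exons overlap the antisense gene Gm11586. It was 4.99% ± 0.128, 4.34% ± 0.524 and 3.99% ± 0.231 for Slc25a13. It was 9.97% ± 0.277, 8.72% ± 0.573 and 8.98% ± 0.373 for Gls2, of which 97 exon bases overlap Spryd4 on the other strand. Values are SD over 3, 2 and 3 libraries in the order flox/flox, wt/flox and wt/wt, the shares were compared by overlap of the libraries only, and the source of the antisense reads was not tested.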

How the results depend on the processing

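In flox/flox against wt/wt, 4 members were called. The count was 0 to 4 with 1 library left out (0 without flox/flox replicate 1, 1 without either wt/wt replicate 1 or 2, and 2 when replicate 3 of flox/flox or of wt/wt was dropped). It was 0 without both libraries of contradicted sex, where the lone flox/flox library is assumed to vary like the other groups. It was 2 (Ass1 and Nags) with the replicate block, 5 (Cps1, Otc, Ass1, Arg1 and Nags) with the block without the sex term, and 0 with the block and the length trend removed. In wt/flox against wt/wt, where 2 were called, the count was 1 with the labelled sex, 0 with the replicate block, with the block without the sex term, with the block and the length trend removed and with the length trend removed, and 4 with library size alone (0 higher and 4 lower, without Cps1). It was 0 to 2 with 1 library left out. In flox/flox against wt/flox it was 0 under all 23 alternatives. The difference in the log2 ratio of Cps1 to Ass1 was 2.10 to 2.46 with 1 library left out. Within pairs of the same number it was 2.27 (replicate block, exact sign permutation p = 0.25, the smallest that 3 pairs allow). Over the 23 alternatives, Ass1 was called in 20, Cps1 in 14, Otc in 14 and Arg1 in 11. No called member changed sign against wt/wt under any of the 23 alternatives. Deviations from the group mean had correlations of 0.28, 0.01 and 0.44 between same-numbered flox/flox and wt/wt libraries. Between differently numbered libraries of these groups they ranged from -0.46 to 0.33. These deviations were not adjusted for sex, so they cannot show whether the numbers pair the mice. The main fit did not take the numbers as pairs, although each stands for an age in the labels. All calls in flox/flox against wt/wt numbered 1786 with the block and 4794 with the block without the sex term, against 4282 without a block. That total was 1811 to 3866 with 1 library left out and 1054 without the libraries of contradicted sex, and 0 with the block and the length trend removed. Calls in wt/flox against wt/wt, 2132 in all, numbered 1300 with the labelled sex, 812 with the length trend removed, 3907 with library size alone, 0 with the block and 0 to 2421 with 1 library left out (0 without wt/flox replicate 1 or 2, or wt/wt replicate 1 or 2). DESeq2 called 16 genes in flox/flox against wt/flox. With library size alone, the median log2 fold change of all genes was -0.32, and 691 genes were higher and 4159 lower, against 2139 and 2143; of the members, Cps1 was then not called and Nags was. The cause of these changes was not tested. Depth was not the limit for the members, whose lowest count was 3174 reads (Nags).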
